A study of Homo sapiens with 8 samples.

Results

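A2780 is a line from a human ovarian carcinoma, and its 4 cisplatin-resistant derivatives were split by their numbers into CPR55 and CPR70, called the higher-numbered pair, and CPR20 and CPR40, called the lower-numbered pair. All 8 arrays of the series entered the comparison, 4 for each pair and 2 for each derivative. Every spotted cDNA array held RNA of 1 derivative labelled with Cy5 and RNA of the cisplatin-sensitive parental line CPR00 labelled with Cy3, so each value is a log2 ratio of derivative over parental line. The dyes were never exchanged, and an effect of the dye on a gene therefore cancels between derivatives but not in a ratio taken by itself. Cells of all lines grew in RPMI1640 with 10% fetal calf serum, and the labels name no drug in the medium. The derivatives are described as progressively more resistant, but the labels give no unit for the numbers 20, 40, 55 and 70, nor whether a derivative is a clone. Nothing in them ties duplicate hybridisations to independent cultures either, so the spread between the 2 arrays of a derivative may be technical. In the main fit, p-values between the pairs rest on that spread and on differences between the derivatives of a pair. With a separate mean for each derivative, they rest on the spread between arrays alone.

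Cisplatin enters cells in part through copper carriers, is bound by glutathione and metallothioneins, and forms adducts and crosslinks on DNA that excision, crosslink and recombination repair remove. Mismatch repair and p53 link those lesions to cell cycle arrest and death. Cells selected with the drug can change any of these steps, and can also shift their adhesion, matrix and metabolic genes. The comparison asks which transcripts separate the 2 derivatives with the larger numbers from those with the smaller ones.

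Arrays numbered replicate 1 made up array set 1 and those numbered replicate 2 array set 2, each with all 4 derivatives, and the set was a term in the model. An array yielded 12759 to 14373 clone spots, and 29.9% to 60.5% of them lay above the empty spots in the derivative channel and 21% to 42.1% in the parental channel. A channel at or under that level is called not well above background. Of 23 ovarian carcinoma and Mullerian marker genes on the arrays, 12 were not well above background in any derivative array, among them WT1, MSLN, WFDC2, CLDN3 and CLDN4, while PAX8 was above on 1 of the 8 arrays. Of 22 leukocyte markers 0 were above on all 8 arrays, and of 14 endothelial and blood cell markers 1 was (VWF). In RNA from a whole culture, a change in the share of cells of one kind and a change in RNA per cell cannot be told apart.

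No gene passed the test between the pairs. Of 13186 probes (clones on the array), 0 (0%) had an adjusted p under 0.05 for CPR55 and CPR70 minus CPR20 and CPR40 in limma with Benjamini-Hochberg adjustment over all probes, and the smallest adjusted p was 0.995. At an unadjusted p under 0.05 there were 430 probes (3.26%), 241 higher and 189 lower in the higher-numbered pair. The raw order was also looked at, without a p-value. It asked for both CPR55 and CPR70 to lie above, or both below, CPR20 and CPR40 within each array set. Of the 10807 probes with values on all 8 arrays, 245 (2.27%) were above in this way and 215 (1.99%) below, and such probes are called separated here. These shares are the background against which the counts of members are to be read.

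The differences were small for most transcripts. The median absolute difference was 0.16 on the log2 scale, against a median standard error of 0.22, and 157 probes (1.19%) differed by more than 1, a fold of 2. A 95% interval that lay wholly inside 1 in either direction was found for 10360 probes (78.6%), so for these a 2-fold difference between the pairs fell outside the interval of the single probe. For 1229 probes that were above background in both channels on all 8 arrays, the interval lay inside that range for 1176 (95.7%), the median absolute difference was 0.10 and 2 probes differed by more than 1. Precision followed brightness: from the dimmest 3297 to the brightest 3297 probes the median standard error went from 0.26 to 0.18, and the share at an unadjusted p under 0.05 from 5.61% to 1.61%. The scatter of pair means shows this closeness for most probes, while some far from the parental line, such as MID1 and LGALS3BP, lie farther apart.

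**Figure D1:**
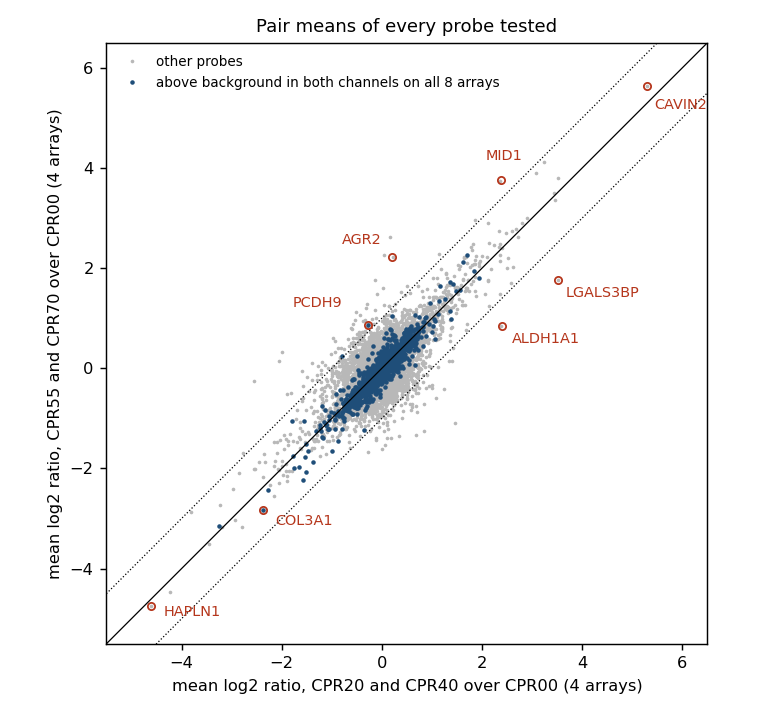
Mean log2 ratio over the parental line in CPR55 and CPR70 (vertical axis) against that in CPR20 and CPR40 (horizontal axis), 4 arrays each, for every probe tested. The solid line marks equal means and the dotted lines a difference of 1. Most probes lie between the dotted lines, and AGR2, MID1, LGALS3BP and ALDH1A1 are among those outside, none with an adjusted p under 0.05.

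Derivatives of the same pair stood at least as far apart as the pairs did. With a separate mean for each derivative, CPR70 minus CPR55 had a median absolute difference of 0.26 (median standard error 0.29, 2 arrays against 2) and 644 probes beyond 1. For CPR40 minus CPR20 the same values were 0.24, 0.30 and 590 probes. In limma, 0 of 13186 probes (0%) passed in either, with 960 (7.28%) and 708 (5.37%) at an unadjusted p under 0.05 and smallest adjusted p of 0.0754 and 0.309. In that same model the difference between the pairs gave 501 (3.8%) at an unadjusted p under 0.05 and 0 after adjustment. The median ratio of the difference to its standard error, sign left aside, was 0.75 between the pairs, 0.87 for CPR70 against CPR55 and 0.78 for CPR40 against CPR20.

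The genes with the smallest p in each direction were taken from the separated ones, a choice that itself favours even levels inside a pair. KPNA6, an importin alpha that carries proteins into the nucleus, had log2 ratios of 0.51 and 0.36 in CPR20 (array sets 1 and 2), 0.46 and 0.70 in CPR40, -0.11 and -0.36 in CPR55, and -0.05 and -0.24 in CPR70. All 4 arrays of the lower-numbered pair lay above all 4 of the other pair. Its mean was 0.51 ± 0.15 against -0.19 ± 0.14 (SD, n = 4 each), a difference of -0.70 (95% interval -1.05 to -0.34, limma adjusted p = 0.995). Its derivative channel was above background on all 8 arrays.

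NBEA, neurobeachin, an anchor protein of membrane traffic, read 0.42 and -1.10 in CPR20, 0.46 and -1.54 in CPR40, 1.03 and -0.23 in CPR55, and 0.84 and -0.43 in CPR70. The higher-numbered pair was above within each array set, although the sets themselves lay more than 1 apart, so the arrays of the pairs overlapped when pooled. The difference was 0.74 (95% interval 0.32 to 1.16). Its derivative channel was above background on 3 arrays of the higher-numbered pair and 1 of the other. The largest difference of this group belonged to a transcript listed as DKFZP586B0319, with 0.95 (95% interval 0.44 to 1.47) and derivative means of -1.30, -1.14, 0.08 and -0.61 in the order CPR20, CPR40, CPR55 and CPR70. Its derivative channel was above background on 4 arrays of the higher-numbered pair but 1 of the other. Its sets were also apart, with -0.79 and -1.80 in CPR20 and 0.59 and -0.44 in CPR55, and the pairs overlapped when pooled. Transcripts listed as KIAA0290 and KIAA0375 were lower in the higher-numbered pair by 0.61 and 0.71 (differences -0.61 and -0.71, unadjusted p = 0.00469 and 0.00675 in limma, adjusted p = 0.995 for both). KIAA0290 was again shifted between array sets, with 0.49 and -0.48 in CPR20 and 0.24 and -1.39 in CPR70, whereas KIAA0375 read 0.58 and 0.63 in CPR55 and 1.55 and 1.56 in CPR20. A further transcript, listed as ARS, was not well above background in the derivative channel of either pair and has no difference here.

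**Figure D2:**
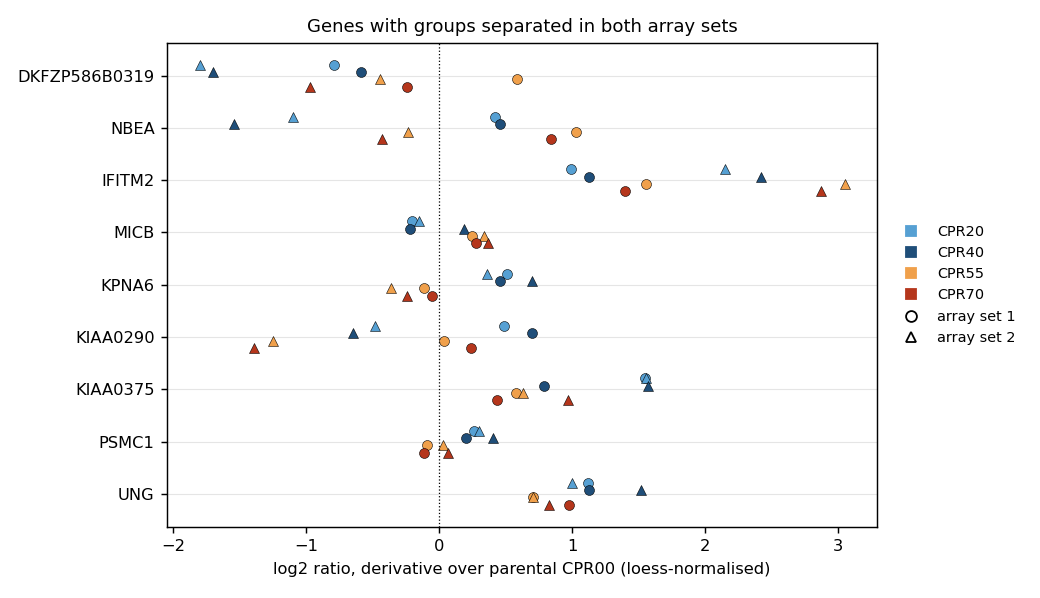
Log2 ratio over the parental line on each of the 8 arrays (horizontal axis) for 9 genes whose pairs were separated in both array sets. Colours mark the derivative and symbols the array set. Within a set the orange and red points lie on 1 side of the blue ones, while for DKFZP586B0319, NBEA, IFITM2 and KIAA0290 the 2 sets are far apart.

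Among the 1229 probes measured above background throughout, PCDH9, a protocadherin of cell adhesion, had the largest difference, 1.15 (95% interval 0.07 to 2.23, limma adjusted p = 0.995). These genes were chosen after their values were seen. Its ratios were 0.58 and 0.59 in CPR20, -1.20 and -1.10 in CPR40, 0.59 and 0.85 in CPR55, and 0.48 and 1.55 in CPR70. CPR40 stood alone below the other 3 derivatives, and CPR20 and CPR55 overlapped. A dimmer clone of PCDH9 differed by 0.54. C1D, a cofactor of the nuclear exosome, differed by 0.85 (95% interval 0.18 to 1.51), with means of 0.02, 0.36, 0.54 and 1.54 in the order of the numbers. CCND2, cyclin D2, was below the parental line in every derivative, at -1.44, -1.71, -2.20 and -2.28 in that order, a difference of -0.67 (95% interval -1.31 to -0.02).

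VEGFC, a growth factor of lymphatic vessels, illustrates a value that rests on 1 derivative. It read -2.31 and -1.15 in CPR20, -2.47 and -1.24 in CPR40, -2.71 and -1.91 in CPR70, but -1.09 and 1.52 in CPR55. The pairs overlapped, and the difference of 0.74 had a 95% interval of -0.80 to 2.29. LGALS1, galectin-1, was highest in CPR55 too, at 0.72 and 0.85, against -0.03 and 0.25 in CPR70 and -0.53 to 0.05 on the 4 other arrays. Its 2 clones differed between the pairs by 0.62 and 0.50. MYBL2, a transcription factor of proliferating cells, differed by -0.59 (95% interval -1.31 to 0.13) and was lowest on 1 array of CPR55, at -1.06. CDX1, a homeodomain factor of the intestine, differed by 0.64 (95% interval 0.17 to 1.11), and its other clone was not well above background.

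Transcripts already known to stand far from the parental line showed whether the size of that change followed the numbers. Of 22 such genes, taken from an earlier analysis of these arrays, 4 (CDKN1A, S100A11, SNAI2 and SNCG) were not well above background in the derivative channel of either pair. Of the other 18, 14 were farther from the parental line in the higher-numbered pair and 4 nearer, 0 were separated, and the 95% interval of the difference held 0 for 16. Some of the 18 were above background on no more than 1 derivative array of each pair, so their side in this count is uncertain. The parental channel of CAVIN2, ISL1, CLDN16, LGALS3BP, MGST1 and TIMP1 was above background on 0 arrays. The size of their ratios is therefore uncertain. Because these genes were selected on a mean over the same arrays, the counts describe them and test nothing.

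CITED2, a regulator of transcriptional coactivators, was the most even. Its ratios were 2.77 and 2.30 in CPR20, 2.24 and 2.27 in CPR40, 2.21 and 2.34 in CPR55, and 2.67 and 2.39 in CPR70. The difference between the pairs was 0.01 (95% interval -0.41 to 0.43), so the interval left out a 2-fold change either way. CAVIN2, a coat protein of caveolae, stood at 5.60, 4.98, 5.12 and 6.14 in the order of the numbers, a difference of 0.34 (95% interval -0.54 to 1.22). HAPLN1, which links hyaluronan to proteoglycans, stood at -4.74, -4.48, -4.31 and -5.19 (difference -0.14, 95% interval -0.74 to 0.46). Its derivative channel was above background on 1 array of the higher-numbered pair and 2 of the other. These ratios lie near the floor, where a difference between the pairs could not be seen. For PCOLCE, an enhancer of procollagen processing, CPR20 was the nearest to the parental line at -3.55, and the other 3 lay between -4.92 and -4.45.

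Several others differed by more inside a pair than between the pairs. MMP3, stromelysin-1, read 3.89 and 3.28 in CPR20, 0.27 and 4.17 in CPR40, 4.79 and 4.87 in CPR55, and 1.39 and 0.93 in CPR70. CPR55 was the highest derivative and CPR70 the lowest, which left a difference of 0.09 between the pairs (95% interval -2.55 to 2.74) beside -3.67 for CPR70 minus CPR55 (limma adjusted p = 0.662). The 2 arrays of CPR40 disagreed by more than the pairs did. MID1, a ubiquitin ligase bound to microtubules, read 4.37 and 3.10 in CPR20, 1.31 and 0.69 in CPR40, 3.47 and 1.87 in CPR55, and 3.97 and 5.68 in CPR70. It was lowest in CPR40 and highest in CPR70, and the difference between the pairs was 1.38 (95% interval -0.83 to 3.60).

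NRG1, a ligand of ErbB receptors, and CLDN16, a tight junction claudin, followed a like order, with CPR20 and CPR70 high. NRG1 had means of 3.33, 1.36, 1.94 and 3.54 and CLDN16 of 3.35, 1.84, 1.57 and 3.92 in the order of the numbers. Their differences between the pairs were 0.40 and 0.15, with intervals of -1.06 to 1.85 and -1.53 to 1.83. ATP11B, a phospholipid flippase, was lowest in CPR55 and highest in CPR70, at 2.41 and 4.31, with a difference of -0.10 between the pairs and 0.11 for its other clone. COL3A1, a fibrillar collagen, was lowest in CPR70, at -4.84 and -3.61, against -2.48 and -0.37 in CPR55, which gave -2.80 for CPR70 minus CPR55 (limma adjusted p = 0.208). CD99, a cell surface glycoprotein, was likewise nearest to the parental line in CPR55 and farthest in CPR70, at -0.92 and -3.41. For ISL1, a homeodomain factor, 1 array of CPR20 read 0.15 while the other 7 read 3.28 to 5.18.

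LGALS3BP and TIMP1 were the only 2 of the 18 at an unadjusted p under 0.05. LGALS3BP, a secreted glycoprotein, read 3.49 and 3.15 in CPR20, 4.14 and 3.27 in CPR40, 0.21 and 4.39 in CPR55, and 0.97 and 1.52 in CPR70. CPR70 lay below both lower-numbered derivatives on each array, whereas the 2 arrays of CPR55 were the lowest and the highest of all 8. The difference was -1.74 (95% interval -3.45 to -0.04, limma adjusted p = 0.995). TIMP1, an inhibitor of matrix metalloproteinases, stood at 1.77, 2.48, 3.02 and 2.77 in the order of the numbers, a difference of 0.77 (95% interval 0.09 to 1.45). Its other clone, with a difference of -0.36, was not well above background. MGST1, a membrane glutathione transferase, had 2.03, 1.71, 2.32 and 3.62, a difference of 1.10 (95% interval -0.02 to 2.23). PHLDA3, a p53 target, differed by 0.54, with its derivative channel above background on 1 array of each pair.

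**Figure D3:**
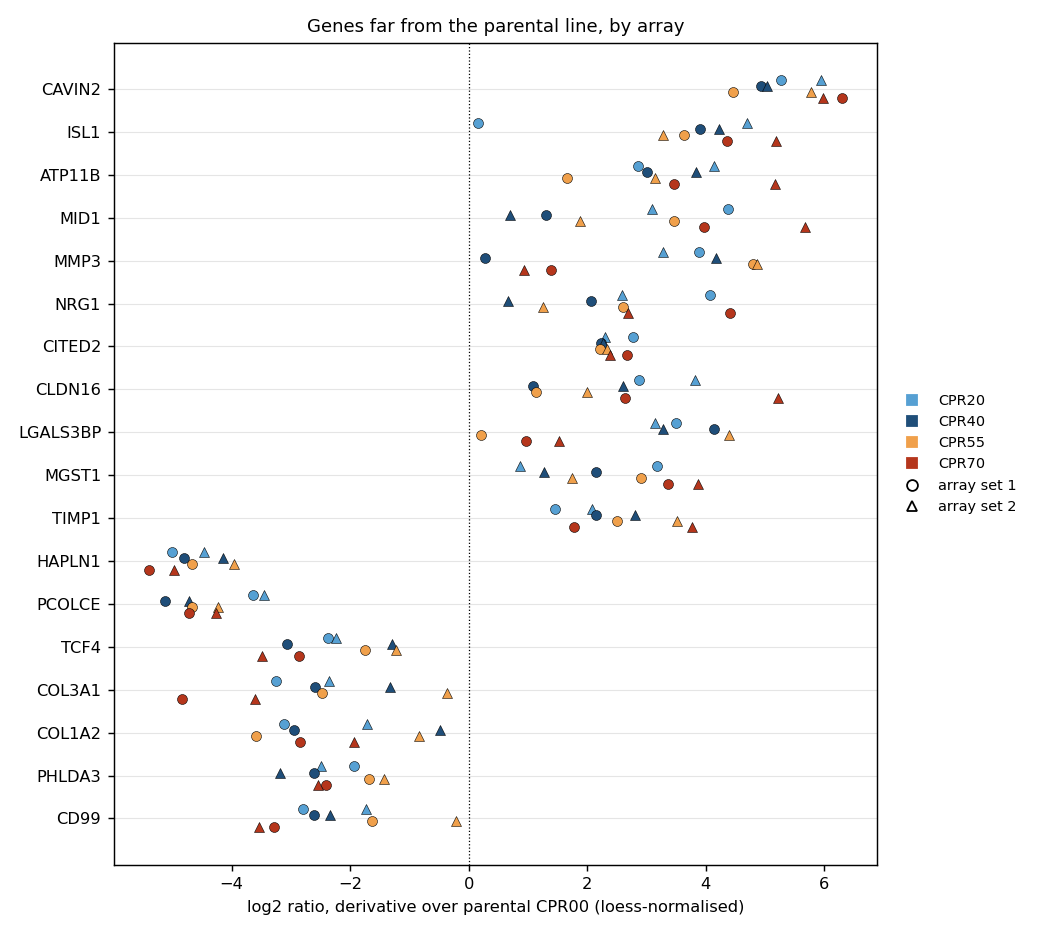
Log2 ratio over the parental line on each of the 8 arrays (horizontal axis) for the 18 genes far from the parental line that were above background in the derivative channel on at least 1 array. Colours mark the derivative and symbols the array set. The range of the orange and red points of CPR55 and CPR70 overlaps that of the blue points of CPR20 and CPR40 in every row. For CD99 the points of CPR55 and those of CPR70 lie at opposite ends.

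Genes were also described in 40 lists by role. None of the lists held a gene that passed the test, and the medians of the lists ran from -0.15 to 0.17, with 31 of 40 inside 0.1 of 0. Over all 9841 genes the median difference was -6.08e-05, and 4918 were higher and 4923 lower in the higher-numbered pair. The plot of the lists shows the range of the members of each list next to its median.

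**Figure D4:**
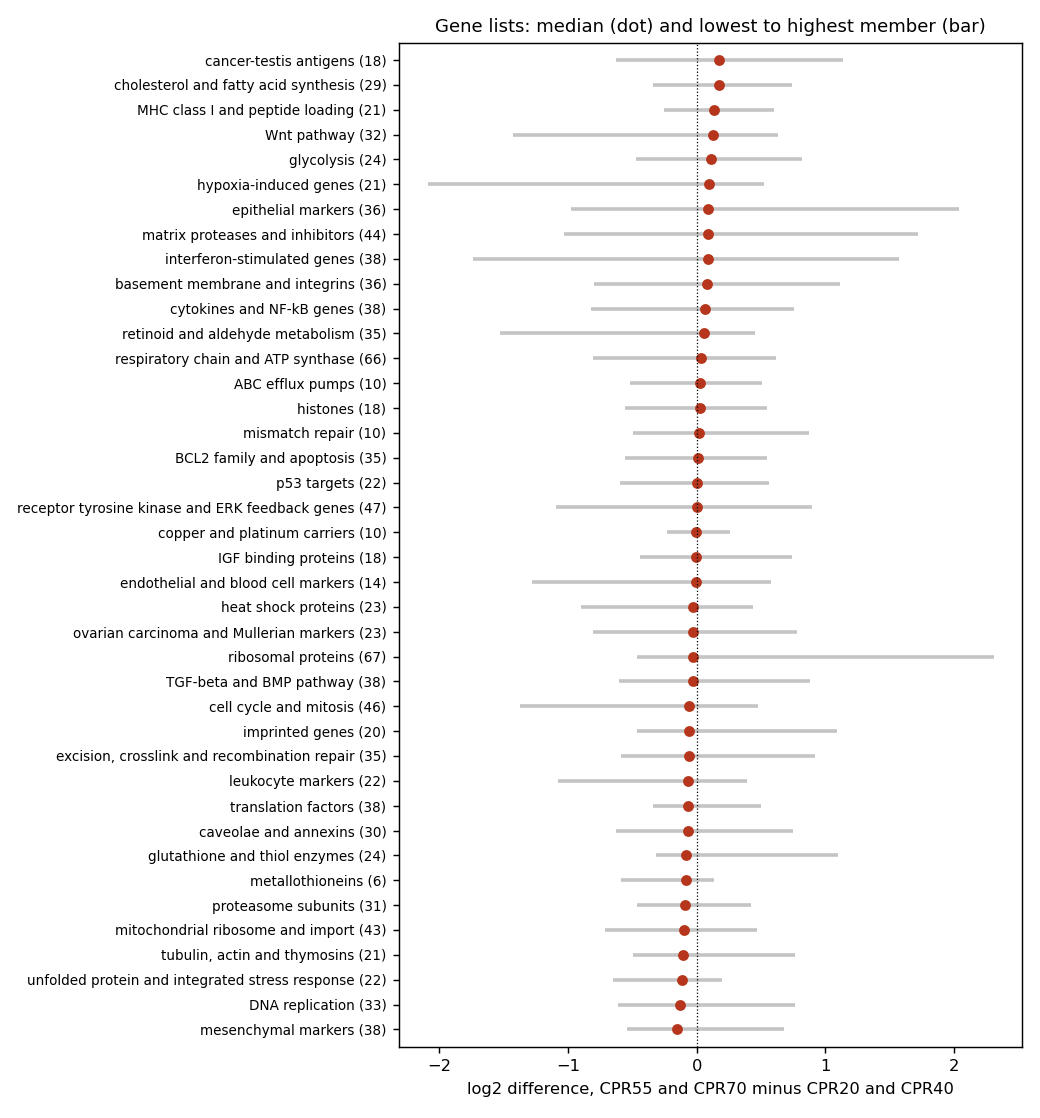
Difference in log2 ratio, CPR55 and CPR70 minus CPR20 and CPR40 (horizontal axis), for 40 gene lists with the number of measured members in brackets. Dots are medians and bars run from the lowest to the highest member, and the dotted line is the median of all genes. The medians lie between -0.15 and 0.17 while the bars span 0 in every list.

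No carrier or pump of the drug passed the test. Of 10 copper and platinum carriers on the arrays 5 were higher and 5 lower, with a median of -0.00298 that became 0.10 when arrays were centred on their medians without loess. SLC31A1, the copper importer CTR1, was below the parental line on all 8 arrays, at -0.82 and -0.82 in CPR20, -0.49 and -0.97 in CPR40, -0.76 and -0.88 in CPR55, and -1.40 and -0.42 in CPR70. The groups overlapped, and the difference was -0.09 (95% interval -0.62 to 0.44). CCS, the copper chaperone of superoxide dismutase, differed by -0.17. Among 10 ABC pumps 6 were higher and 4 lower, with a median of 0.03, and 1 of the 8 with all values was separated, downward. ABCC1, which exports glutathione conjugates, stood at 0.74, 0.63, 0.46 and 0.93 in the order of the numbers, with a difference of 0.01 (95% interval -0.46 to 0.48). ABCB1, P-glycoprotein, had 1.08, 0.44, 0.67 and 1.86 and a difference of 0.50 (95% interval -0.53 to 1.54), led by CPR70. Its derivative channel was above background on 3 arrays of the higher-numbered pair and 1 of the other, and its parental channel on 1. ABCA3, a lipid transporter, was above the parental line in all 4, at 2.45, 2.59, 1.98 and 2.43. That pump was ABCC2, a further exporter of conjugates, whose derivative channel was above background on 1 of the 8 arrays. The same held for ATP7B, a copper-exporting ATPase, and neither allowed a fold between the pairs.

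Thiol genes gave the same picture. Of 24 glutathione and thiol enzymes 10 were higher and 14 lower, with a median of -0.08 that became 0.06 when arrays were centred on their medians without loess, 0.05 without CPR70 and 0.02 without its replicate 2 array alone. GSTP1, a glutathione transferase, read 1.00 and 0.46 in CPR20, 0.71 and 0.57 in CPR40, 0.57 and 0.46 in CPR55, and 0.42 and 0.43 in CPR70. The higher-numbered pair lay at or under the lower-numbered one in each set, with a difference of -0.21 (95% interval -0.57 to 0.14). GLRX, a glutaredoxin, differed by 0.48 (95% interval -0.22 to 1.17) through CPR55 at 1.87, the other 3 standing at 0.92 to 0.96. MGST3 differed by 0.23. Of 6 metallothioneins 2 were higher and 4 lower, with a median of -0.09 that became 0.13 without CPR70 and 0.27 in array set 2 alone. MT2A differed by 0.14 (95% interval -0.70 to 0.97), and its derivative channel was above background on 2 of 8 arrays. MT1H differed by 0.13 (95% interval -0.30 to 0.56) and MT1G, with 1 array missing, by -0.10 (95% interval -0.65 to 0.45). For MT1G the derivative channel was above background on 1 array of each pair. MT3 was above background on 1 of 8 arrays, which allowed no fold.

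DNA repair genes were spread around 0. In the list of excision, crosslink and recombination repair 15 were higher and 20 lower (median -0.06, or 0.02 with such centring), and in mismatch repair 6 were higher and 4 lower (median 0.02). UNG, the uracil glycosylase of base excision repair, read 1.12 and 1.00 in CPR20, 1.13 and 1.52 in CPR40, 0.71 and 0.71 in CPR55, and 0.98 and 0.83 in CPR70. Every array of the lower-numbered pair was above every array of the other, with a difference of -0.38 (95% interval -0.78 to 0.01, limma adjusted p = 0.995), while its other clone was not well above background. RPA1, which coats single-stranded DNA, differed by -0.44 (95% interval -0.95 to 0.07), with its parental channel above background on 0 arrays. ERCC1, a subunit of the excision repair nuclease, differed by -0.01, though its wide interval of -0.81 to 0.79 does not leave out a sizeable change. For the mismatch repair protein MSH6 the difference was 0.01 (95% interval -0.43 to 0.44).

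Among 22 p53 targets 11 were higher and 11 lower (median 0.00458). The sign of that median changed in 16 of 31 alternatives, and it was -0.19 among members above background in both channels on all 8 arrays. CYFIP2, a regulator of actin assembly, read -0.62 and 0.29 in CPR20, -0.54 and 0.17 in CPR40, 0.42 and 0.34 in CPR55, and 0.22 and 0.39 in CPR70. The pairs were separated in each set, with a difference of 0.51 (95% interval 0.07 to 0.96), which was 0.90 in set 1 and 0.13 in set 2. Its derivative channel was above background on 2 arrays of the higher-numbered pair and 1 of the other, and its parental channel on 0. XPC, the damage sensor of nucleotide excision repair, differed by -0.22 and was also separated. MDM2, the ubiquitin ligase of p53, differed by 0.42 (95% interval -0.53 to 1.37). The derivative channel of MDM2 was above background on 1 array of the higher-numbered pair and 2 of the other. CDKN1A, the p21 inhibitor of cyclin-dependent kinases, was not well above background in any derivative.

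Replication and cell cycle lists had medians below 0, which turned positive when CPR55 was left out. Of 33 replication genes 9 were higher and 24 lower in CPR55 and CPR70, with a median of -0.13 (-0.13 to -0.05 under other scalings), 0.20 without CPR55 and 0.01 in array set 1 alone. Of 46 cell cycle and mitosis genes 12 were higher and 34 lower, with a median of -0.06 that became 0.01 without CPR55. No gene of either list was separated upward and 1 was separated downward. MCM3, a subunit of the replicative helicase, read -0.07 and -0.11 in CPR20, 0.06 and -0.23 in CPR40, -0.26 and -0.95 in CPR55, and 0.02 and -0.68 in CPR70. The groups overlapped in set 1, and the difference was -0.38 (95% interval -0.79 to 0.03), with -0.18 in its other clone. POLA2, of DNA polymerase alpha, differed by -0.45 and POLD1, of polymerase delta, by 0.32. The derivative channel of POLD1 was above background on 2 arrays of the higher-numbered pair and 1 of the other, its parental channel on 0. PLK1, a mitotic kinase, stood at 0.53, 0.20, -0.58 and 0.17 (difference -0.57, 95% interval -1.21 to 0.06) and CDK6, a kinase of G1, at -0.43, -0.55, -0.26 and 0.23 (difference 0.48). CPR55 was the lowest derivative for MCM3, POLA2, PLK1 and MYBL2. The same replication list had a median of 0.47 for CPR70 minus CPR55, larger than the -0.13 between the pairs.

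Antigen presentation and interferon lists had medians above 0, which turned negative when CPR55 was left out. In the list of MHC class I and peptide loading 15 of 21 members were higher in CPR55 and CPR70, with a median of 0.14 (0.12 to 0.22 under other scalings, -0.04 without CPR55). In the interferon-stimulated list 24 of 38 were higher, with a median of 0.09, -0.00518 without CPR55 and -0.13 among members above background in both channels on all 8 arrays. None passed. IFITM2, an antiviral membrane protein, read 0.99 and 2.15 in CPR20, 1.13 and 2.42 in CPR40, 1.56 and 3.05 in CPR55, and 1.40 and 2.87 in CPR70. Within each set both higher-numbered derivatives were above both others, and the difference was 0.55 (95% interval 0.19 to 0.91, unadjusted p = 0.00794 and adjusted p = 0.995 in limma). Clones of the IFITM and HLA families can bind transcripts of related genes.

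MICB, a ligand of the NKG2D receptor of natural killer cells, read -0.20 and -0.15 in CPR20, -0.22 and 0.19 in CPR40, 0.25 and 0.34 in CPR55, and 0.28 and 0.37 in CPR70. The groups did not overlap, and the difference was 0.40 (95% interval 0.06 to 0.74). Its relative MICA differed by 0.36 and overlapped in set 2. The derivative channel of MICA was above background on 2 arrays of each pair, and its parental channel on 0. B2M, the light chain of class I molecules, and TAPBP, tapasin of the loading complex, were highest in CPR55, at 2.06 and 1.55, while CPR70 stood at 1.23 and 0.91, close to CPR40 at 1.28 and 1.06. Their differences of 0.48 and 0.33 had intervals of -0.12 to 1.08 and -0.22 to 0.87. IRF7, a transcription factor of the interferon response, differed by 0.60 (unadjusted p = 0.0512 in limma), with its parental channel above background on 0 arrays. A dimmer clone of IRF7 differed by 0.11. IFI6, an interferon-induced mitochondrial protein, differed by -1.20, but it was high in set 1 alone, with 2.73 in CPR20 and 2.53 in CPR40 there and 0.16 and -0.05 in set 2.

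Stress response and protein turnover lists had medians below 0. Of 22 genes of the unfolded protein and integrated stress response 7 were higher and 15 lower, with a median of -0.12 (-0.12 to -0.08 under other scalings) that became 0.05 without CPR20 or without its replicate 1 array alone. ATF4, the transcription factor of the integrated stress response, read 0.21 and -0.48 in CPR20, -0.55 and -0.36 in CPR40, -0.95 and -0.60 in CPR55, and -0.94 and -0.48 in CPR70. In set 2 CPR20 and CPR70 read alike to 2 decimals, and the difference was -0.45 (95% interval -0.96 to 0.06), against -0.24 in its other clone. Its targets ASNS, asparagine synthetase, and WARS1, a tryptophan-tRNA synthetase, differed by -0.65 and -0.33. The ASNS value was uneven, since set 1 read -2.37 in CPR40 and -3.22 in CPR55 but -0.53 in CPR20. PSPH, of serine synthesis, was separated by a smaller -0.23.

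Of 31 proteasome subunits 11 were higher and 20 lower, with a median of -0.09 that became 0.02 when arrays were centred on their medians without loess. PSMC1, an ATPase of the regulatory particle, read 0.26 and 0.30 in CPR20, 0.20 and 0.41 in CPR40, -0.09 and 0.03 in CPR55, and -0.11 and 0.07 in CPR70. These groups did not overlap and were even within each pair, with a difference of -0.32 (95% interval -0.63 to -0.01). PSMD11 and PSMC4 differed by -0.42 and -0.46, and the other clone of PSMC4 by -0.14. Heat shock genes divided into 9 higher and 14 lower (median -0.03, or 0.07 with that centring). HSPA8, the constitutive HSP70, differed by 0.42, HSPD1, the mitochondrial chaperonin, by -0.31 and BAG3, a cofactor of HSP70, by 0.23, all with intervals that held 0.

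Lipid synthesis had one of the 2 highest medians of the lists. Of 29 genes of cholesterol and fatty acid synthesis 22 were higher and 7 lower in CPR55 and CPR70, with a median of 0.17 (0.17 to 0.23 under other scalings), and 1 was separated. Among members above background in both channels on all 8 arrays the median was -0.00476. FADS2, a fatty acid desaturase, read 2.50 and 1.90 in CPR20, 2.12 and 0.77 in CPR40, 2.61 and 2.59 in CPR55, and 2.37 and 2.37 in CPR70. CPR20 overlapped with CPR70 in set 1, and 1 array of CPR40 was the lowest of all. The difference was 0.66 (95% interval -0.03 to 1.35). IDI1, an isomerase of the mevalonate pathway, stood at 0.28, 0.25, 0.76 and 0.67 (difference 0.45, 95% interval -0.02 to 0.93). MSMO1 and TM7SF2, enzymes of late cholesterol synthesis, differed by 0.64 and 0.74, with a dimmer MSMO1 clone at -0.37. The brighter MSMO1 clone was above background in the derivative channel on 1 array of the higher-numbered pair and 2 of the other. Its parental channel was above on 0.

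Of 24 glycolytic genes 18 were higher (median 0.11, or -0.03 without CPR40). GAPDH, a glycolytic dehydrogenase, stood at -0.19, -0.15, 0.10 and 0.04, a difference of 0.24 (95% interval -0.12 to 0.60), and the enolase ENO3 differed by 0.45. SLC16A3, a lactate exporter, was above background in the derivative channel on all 4 arrays of CPR55 and CPR70 and on none of CPR20 and CPR40. With the dim arrays set to the lowest signal above background, its mean was at least 1.26-fold higher. The difference was 0.82 (95% interval 0.03 to 1.60, limma adjusted p = 0.995). Of 66 respiratory chain and ATP synthase genes 40 were higher, with a median of 0.04 and 3 separated upward. The complex I subunits NDUFA1 and NDUFA3 were separated, with differences of 0.29 (95% interval -0.04 to 0.62) and 0.35 (95% interval -0.03 to 0.73). P4HA2, a collagen prolyl hydroxylase of the hypoxia list, differed by 0.38.

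Epithelial markers held some of the widest differences, which for AGR2 and EPCAM were led by CPR70. Of 36 on the arrays 22 were higher and 14 lower (median 0.09, or -0.04 with the series matrix values), and 14 were not well above background in any derivative array. The members named here were all higher. The lowest member of the list, at -0.97, had values on 4 arrays and was not well above background. AGR2, a disulfide isomerase of secretory epithelium, read -0.13 and 0.65 in CPR20, -0.61 and 0.94 in CPR40, -0.21 and 0.71 in CPR55, and 3.47 and 4.95 in CPR70. CPR70 alone stood apart and was the only derivative in which AGR2 was above background. The difference of CPR70 from CPR55, 3.96, had the smallest adjusted p of that comparison (0.0754 in limma). CPR55, at a mean of 0.25, stood level with CPR20 at 0.26 and CPR40 at 0.17. The difference between the pairs was 2.02 (95% interval -0.23 to 4.26). With the dim arrays set to the lowest signal above background, the mean of CPR55 and CPR70 was at least 1.78-fold higher, through CPR70 alone. EPCAM, an epithelial adhesion molecule, was above background on 2 of the 8 arrays, both of CPR70, with means of 0.01, 0.05, 0.83 and 2.38. On the same scale its mean was at least 1.30-fold higher in CPR55 and CPR70. SPINT1, a serine protease inhibitor, differed by 2.04 (95% interval -0.20 to 4.27, 1 array of CPR40 missing), with 1 array of CPR55 at 5.12 and a difference of 1.79 in array set 2, which does not hold that array, and its other clone was not well above background.

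Mesenchymal markers had the lowest median, -0.15 (-0.15 to -0.07 under other scalings, 0.08 without CPR70), with 14 of 38 higher and 24 lower. COL6A1, a collagen of microfibrils, nevertheless differed by 0.50 (95% interval 0.07 to 0.92), and was above background on all 4 arrays of CPR55 and CPR70 and on 1 of the other 4. Among basement membrane and integrin genes 23 of 36 were higher (median 0.08). The fibronectin receptor chain ITGA5 read 0.22 and -1.01 in CPR20, -0.41 and -1.10 in CPR40, 0.10 and -0.54 in CPR55, and 0.49 and -0.89 in CPR70, a difference of 0.36 (95% interval -0.09 to 0.81) with overlap in set 1. ITGA1, a collagen receptor chain, differed by 0.34, with its derivative channel above background on 1 array of each pair. Of 44 matrix proteases and inhibitors 27 were higher (median 0.09, or -0.00888 when arrays were centred on their medians and -0.15 without CPR55). CSTB, the cathepsin inhibitor cystatin B, stood at -0.05, 0.16, -0.76 and -0.39 (difference -0.64, 95% interval -1.17 to -0.11).

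Signalling, cytoskeletal and retinoid genes gave a few larger values. ALDH1A1, a retinal dehydrogenase, read 1.77 and 4.66 in CPR20, 1.88 and 1.24 in CPR40, 0.77 and 1.82 in CPR55, and 0.88 and -0.06 in CPR70. Its derivative means went down with the number, at 3.22, 1.56, 1.29 and 0.41, but the 2 arrays of CPR20 were nearly 3 apart. The difference was -1.53 (95% interval -3.16 to 0.09, limma adjusted p = 0.995). TNF, the inflammatory cytokine, was separated, with means of 0.16, 0.16, 1.19 and 0.64 and a difference of 0.76 (95% interval 0.15 to 1.36), whereas its other clone was not well above background. TMSB10, an actin-binding thymosin, stood at 2.98, 3.18, 4.39 and 3.65, a difference of 0.76 (95% interval 0.15 to 1.38), with 1 array of CPR55 missing. The parental channel of TMSB10 was above background on 0 arrays. IGF2R, the receptor that clears IGF2, was separated by 0.33, and the growth factor FGF18 differed by 0.35. Of 32 Wnt pathway genes 22 were higher (median 0.13) and 12 not well above background. That median was -0.00616 among members above background in both channels on all 8 arrays, and -0.0014 with the series matrix values. The receptor FZD7 differed by 0.48, carried by 1 array of CPR55 at 0.60. ACTG2, a smooth muscle actin, and TUBG1, gamma-tubulin, both differed by -0.29.

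Protein synthesis lists had medians near 0. Of 67 ribosomal protein genes 26 were higher and 41 lower, with a median of -0.03 that became 0.07 when arrays were centred on their medians without loess. RPL11, of the large subunit, had the highest value of that list, but its derivative channel was above background on 1 of 8 arrays and 2 arrays were missing, so no fold is given. Of 38 translation factors 15 were higher (median -0.07). EIF3B, a scaffold of initiation factor 3, read 0.19 and 0.25 in CPR20, 0.01 and 0.18 in CPR40, -0.11 and -0.27 in CPR55, and -0.09 and -0.03 in CPR70. The groups did not overlap, and the difference was -0.28 (95% interval -0.62 to 0.05). EIF2S2, a subunit of initiation factor 2, differed by -0.29 and by -0.25 in its other clone. EIF3H, of initiation factor 3, differed by 0.50 (95% interval -0.28 to 1.28), with 1 array of CPR55 at 1.30. The mitochondrial ribosomal proteins MRPS35 and MRPL40 were separated too, with differences of -0.31 and -0.26, in a list of 43 genes with 16 higher and 27 lower (median -0.10, or 0.02 without CPR55).

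Position in the genome was described as well. Of 6174 genes with 8 values that could be placed on a chromosome, 0 runs of 3 neighbours were separated in 1 direction, and the longest run had 2. Across 23 chromosomes with at least 50 genes the share separated upward ran from 1.02% to 4.57% and downward from 0.877% to 3.91%, around the 2.27% and 1.99% of all probes. The median difference per chromosome lay between -0.07 and 0.06.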

How the data were processed

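Derivative (Cy5) and parental (Cy3) intensity per spot are as the authors deposited them, on a linear scale and with no background columns. Quantification software is not given in the sources used here. Per the file headers the table also holds a calibrated ratio, which equals red over green times 1 constant per array. The deposited spot area (other than an expression value) is 0 where a spot was not found. The deposited series matrix values equal log2 of that ratio. The table's 8 value columns of 2 further arrays were not used. Of 15360 spots, 933 controls were left out of fits, and 14427 clone spots stand for 13340 clones.

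An offset of 50 was added, spots not found were set to missing, and log2 ratios were normalised by loess within arrays (limma 3.58.1, R 4.3.3). Spots of a clone were averaged, and 13186 clones with a value for each derivative were kept, 154 left out. A gene was represented by its brightest clone (1262 genes had several). Of the symbols, 5427 were current in RefSeq genes of GRCh38.p14, 2100 were older names, 243 had several matches and 2192 none. The background level was the median of empty spots plus 2.6 median absolute deviations. The model held a mean, the pair and the array set (lmFit, eBayes; 5 residual and 3.41 prior degrees of freedom). Comparisons inside a pair used a mean per derivative (3 residual degrees of freedom). A lower bound on a fold set a dim array to its lowest signal above background, after Aquantile normalization. Such a bound compares means of arrays and carries no error.

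Replicate numbers paired the arrays: deviations from derivative means correlated at 0.257 to 0.369 between derivatives for same-numbered arrays, so the set stayed in the model. Errors of a pair are SDs over 4 arrays, which include the difference between sets. Other offsets, backgrounds, scalings, filters, models and left-out arrays were tried. The fits of the pairs and of CPR70 minus CPR55 were tested on simulated data. Genes named are the 3 with the smallest p in each direction among separated clones with 8 values (15 would have been named had enough passed), up to 4 of a described list with the smallest p, 11 genes studied in cisplatin resistance, and 22 far from the parental line. Those above background throughout were picked after their values were seen. The members and lists were chosen with earlier results of these data known. The number of arrays limits precision. Some genes picked by these rules are not reported here.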

Additional observations from a re-analysis of the deposited data

Results flagged for a closer look

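For the 98 genes described, each pair's 4 arrays were checked for 1 array far from the other 3. The gap to the nearest array, as a share of the group's range, had to exceed Dixon's 95% critical value. About 1 of 20 groups of independent normal values pass it, but each group here mixes 2 derivatives and 2 array sets. That rate therefore need not hold for them. Of 193 groups with 4 values, 6 exceeded the critical value (3.11%), no array more than 3 times. In CPR40 replicate 1, KIAA0375 read 0.79 against 1.55 to 1.57 on the other lower-numbered arrays, ASNS -2.37 against -0.66 to -0.43, and BAG3 1.09 against 0.36 to 0.46. CITED2 read 2.77 in CPR20 replicate 1 against 2.24 to 2.30. MICB read 0.19 in CPR40 replicate 2 against -0.22 to -0.15. HSPD1 read 0.74 in CPR70 replicate 2 against -0.29 to -0.15 on the other higher-numbered arrays. Whether the effect of the pair differed between the array sets was tested as an interaction in limma: 0 of 13186 probes passed (450 at an unadjusted p under 0.05, smallest adjusted p 0.169).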

How the results depend on the processing

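The count of 0 probes between the pairs held under 30 of 31 alternatives. Without the derivative CPR55, 1 probe passed, AGR2, with a log2 difference of 4 (limma adjusted p = 0.0242), which is CPR70 set against the lower-numbered pair. Leaving out each array in turn gave 0 to 0 probes for all 3 comparisons. The fit with no replicate block gave 0 probes between the pairs (288 at an unadjusted p under 0.05, against 430 with the block), 0 for CPR70 minus CPR55 (499 against 960) and 0 for CPR40 minus CPR20 (385 against 708). With each derivative as a random block and the replicate block kept, 0 passed (correlation 0.0581). The unadjusted count between the pairs was 735 without the derivative CPR70 and 714 with array weights, in which CPR20 replicate 2 weighed 4.19 and the others 0.609 to 1.23. Without CPR20 replicate 1 the unadjusted count for CPR40 minus CPR20 was 328. Array weights, the series matrix values centred on their medians, and the filter on both channels were chosen after seeing the data. Of 193 genes followed, 135 kept the sign of their difference in every alternative run and 192 never passed. Of the 40 list medians, 4 kept their sign throughout. Depth of signal limits the dim genes: in the dimmest 3297 probes the median standard error was 0.26.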
